A study of Drosophila melanogaster with 4 samples.

Results

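The 39 genes described here encode the precursors of neuropeptides and peptide hormones of Drosophila melanogaster other than the insulin-like peptides. They were taken by name from the 17137 genes of the count table, matching symbols without regard to case, and each of the 39 names had exactly 1 row. A neuropeptide gene encodes a long precursor that enters the secretory pathway, is cut at basic residues by prohormone convertases, is often amidated at its C terminus and is stored in dense core vesicles. The released peptides mostly act on G protein-coupled receptors, near the release site or through the haemolymph. In the fly head they are known for setting feeding, sleep, circadian output, stress metabolism, water balance and muscle tone, and many are made in few neurons alongside a fast transmitter.

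The libraries are poly(A) RNA from untreated flies 10 days old. Heads were homogenised and nuclei carrying the envelope protein UNC84, expressed from a UAS under a split-Gal4 driver, were isolated by INTACT, a pull-down of tagged nuclei that should mark only cells in which both driver parts are active. The first genotype was VAChT:VGlut split-Gal4/UAS-UNC84, which joins the promoters of the vesicular acetylcholine and glutamate transporters. The second was VAChT:VGAT split-Gal4/UAS-UNC84, which joins VAChT with the vesicular GABA transporter, and each genotype had 2 libraries. The UAS tag and the VAChT part of the driver are shared by both. Which peptide genes differ between nuclei marked by the one driver pair and by the other is the question of the comparison, and neither genotype is a control. Nothing in the labels ties the 2 libraries of a genotype to separate fly collections, so p-values measure only the spread between libraries, which may be technical.

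Counts over genes summed to 2023040 and 2556988 in VAChT:VGlut and to 1937871 and 1490390 in VAChT:VGAT. Levels are in CPM, counts per 1000000 after TMM scaling. At these depths 3 counts are worth 1.17 to 2.01 CPM, a floor that covers counting error only. The transporter gene VGlut averaged 380 CPM in VAChT:VGlut and 256 CPM in VAChT:VGAT, and Gad1, which makes GABA, 665 CPM in VAChT:VGlut and 1245 CPM in VAChT:VGAT, both past the threshold used below. VGAT, at 176 CPM in VAChT:VGlut and 164 CPM in VAChT:VGAT, did not pass, so the groups are named for their drivers. The labels call the cells neuronal nuclei, but marker genes of other head cells were abundant in all libraries and differed between the genotypes. The 12 photoreceptor markers summed to 30999 and 31214 CPM in VAChT:VGlut against 25734 and 25907 in VAChT:VGAT, and the 10 muscle markers to 1439 and 1437 CPM in VAChT:VGlut against 1030 and 1053 in VAChT:VGAT. The 6 pan-neuronal markers summed to 8776 and 8970 CPM in VAChT:VGlut against 7414 and 7496 in VAChT:VGAT. The 7 fat body markers summed to 27996 and 27367 CPM in VAChT:VGlut against 33904 and 33945 in VAChT:VGAT, and the 8 glial markers to 1990 and 1903 CPM in VAChT:VGlut against 2479 and 2495 in VAChT:VGAT. The 9 gut markers summed to 180 CPM in each VAChT:VGlut library against 236 and 210 in VAChT:VGAT, with betaTry, Jon25Bi and Mur29B at 0 in every library. Most of that sum was the single gene LManII, at 172 and 167 CPM in VAChT:VGlut against 220 and 196 in VAChT:VGAT. The 8 ovary markers summed to 1.51 and 1.99 CPM in VAChT:VGlut against 29.7 and 26.6 in VAChT:VGAT, with Vm26Aa and Vm26Ab at 0 in every library.

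Of the 39 precursor genes, 28 had enough counts to be tested and 8 of these differed between the genotypes (edgeR quasi-likelihood test, Benjamini-Hochberg adjusted p under 0.05 over all 8246 genes tested). The same threshold was passed by 11.8% of all genes tested. Proc, Ms, AstC, AstA and Tk were higher in VAChT:VGlut (5 genes, against a background of 6.22% of all genes tested), and Nplp2, Nplp3 and Crz were lower (3 genes, against 5.54%). With library size alone as the scaling, the count stayed at 8 (4 higher and 4 lower, with Dh31 in place of Tk), while the split of all genes, 513 higher and 457 lower with TMM, became 398 and 575. The 20 other tested genes did not pass. Calls were more frequent among abundant genes: 7 of the 16 members with a mean of at least 50 CPM passed, where 21.2% of all genes at that level did. Of the 12 members under 50 CPM, 1 passed. Of all 8246 genes tested 970 passed, and 760 of these were among the 3582 genes with at least 50 CPM. The median log2 fold change was 0.05 over the 28 tested members and -0.01 over all genes tested. The 8 members that passed had a median absolute log2 fold change of 0.64, against 0.37 over the 970 genes that passed. In bulk libraries such as these, fewer cells that make a peptide and less RNA of it per cell cannot be told apart.

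**Figure D1:**
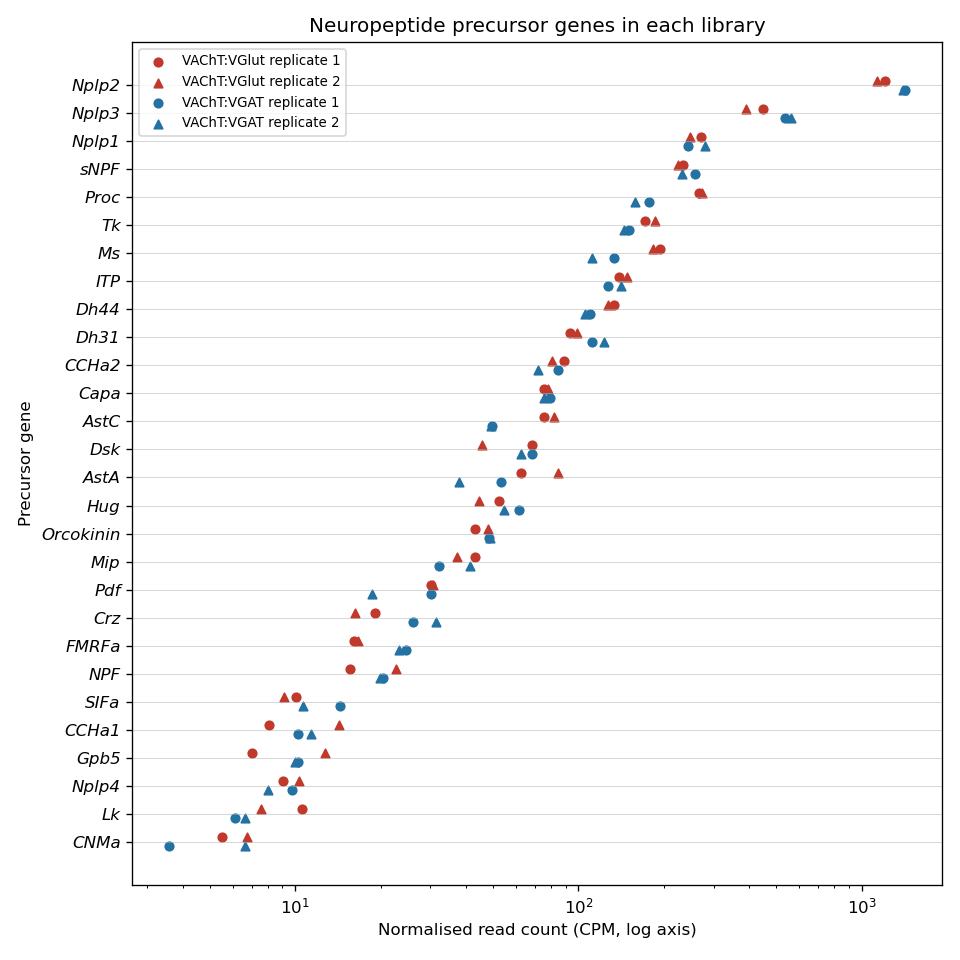
Normalised read count (CPM, log axis) of the 28 tested precursor genes in each library, ordered by mean; red marks VAChT:VGlut and blue VAChT:VGAT, with a circle for replicate 1 and a triangle for replicate 2. Nplp2 and Nplp3 stand above the rest, and in Proc, Ms, AstC, AstA, Tk, Dh44 and Lk both red points lie above both blue points. The reverse holds for Crz, Dh31, FMRFa, Hug, Nplp2, Nplp3, Orcokinin and SIFa. Together these are 15 of the 28, against 49.3% of all genes tested.

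The summed level of the 39 precursors was close in the 4 libraries, at 3810 and 3667 CPM in VAChT:VGlut against 3914 and 3853 in VAChT:VGAT. Its makeup differed. Nplp2 and Nplp3 together took 43.6% and 41.6% of the precursor CPM in VAChT:VGlut and 50.2% and 51.0% in VAChT:VGAT. Without these 2 genes the sum was 2150 and 2141 CPM in VAChT:VGlut against 1951 and 1890 in VAChT:VGAT.

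Of the muscle-active peptides, a grouping made for this report, 3 of 5 tested members were higher in VAChT:VGlut past the threshold and none lower. Of all genes tested, 6.22% were higher past it. The share depends on the grouping: Mip, the myoinhibiting peptide (log2 0.14, not past the threshold), was placed with the feeding, arousal and circadian peptides. Proc (FBgn0045038; dm6 chromosome 2L, 7864642 to 7871432, minus strand) encodes proctolin, a pentapeptide that strengthens muscle contraction and is released as a cotransmitter. Proc had 267 and 272 CPM in the VAChT:VGlut libraries against 178 and 158 CPM in the VAChT:VGAT libraries. The groups did not overlap, and the fold change was 1.59 (log2 0.67, SE 0.08, edgeR adjusted p = 2.18e-10). Ms (FBgn0011581; chromosome 3R, 24341551 to 24343825, plus strand) encodes myosuppressin, which slows visceral and heart muscle. Ms had 194 and 184 CPM in VAChT:VGlut against 134 and 112 CPM in VAChT:VGAT. Again both VAChT:VGlut libraries were above both others, with a fold change of 1.52 (log2 0.61, SE 0.09, edgeR adjusted p = 4.61e-07).

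AstC (FBgn0032336; chromosome 2L, 11076165 to 11081399, minus strand) encodes allatostatin C, which inhibits heart muscle in flies and is made in some clock neurons. It had 75.4 and 81.8 CPM in VAChT:VGlut against 49.6 and 49.3 CPM in VAChT:VGAT, without overlap (1.59-fold; log2 0.67, SE 0.14, edgeR adjusted p = 0.000292). The paralogous gene AstCC lies 2059 bases from AstC on the same strand and had 2 and 1 counts in VAChT:VGlut against 2 and 0 in VAChT:VGAT. AstC itself had 74 to 206 counts per library. FMRFa, whose FMRFamide-like peptides modulate the neuromuscular junction, had 16.1 and 16.7 CPM in VAChT:VGlut against 24.6 and 23.3 CPM in VAChT:VGAT. Its groups did not overlap in the opposite direction, but the difference did not pass (log2 -0.55, 95% interval -1.03 to -0.07, edgeR adjusted p = 0.145). Orcokinin, first known from crustacean hindgut, had 43.2 and 48.1 CPM in VAChT:VGlut against 48.1 and 48.6 CPM in VAChT:VGAT (log2 -0.07, 95% interval -0.39 to 0.25).

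Of the feeding, arousal and circadian peptides, 2 of 12 tested members passed, where 11.8% of all genes tested did. Both were higher in VAChT:VGlut. AstA (FBgn0015591; chromosome 3R, 24760530 to 24765071, minus strand) encodes allatostatin A, which curbs feeding and promotes sleep. AstA had 62.8 and 84.6 CPM in VAChT:VGlut against 53.2 and 38.0 CPM in VAChT:VGAT, so the replicates were further apart than for the genes above. The fold change was 1.61 (log2 0.68, SE 0.16, edgeR adjusted p = 0.00083). It did not pass without VAChT:VGlut replicate 2 (log2 0.44, edgeR adjusted p = 0.227) or without VAChT:VGAT replicate 2 (log2 0.49, edgeR adjusted p = 0.0504).

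Tk (FBgn0037976; chromosome 3R, 11994175 to 12005473, minus strand) encodes the tachykinins, which modulate olfaction and aggression. Tk had 172 and 187 CPM in VAChT:VGlut against 150 and 145 CPM in VAChT:VGAT, a 1.22-fold difference (log2 0.28, SE 0.09, edgeR adjusted p = 0.0205). This was the smallest of the 5 rises. It did not pass without VAChT:VGlut replicate 2 (edgeR adjusted p = 0.307), VAChT:VGAT replicate 1 (0.0853) or VAChT:VGAT replicate 2 (0.118), nor with library size alone as the scaling (0.0514).

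The 10 other tested genes of this group did not pass. sNPF, the precursor of short neuropeptide F, which promotes feeding and is made broadly in the brain, was among the most abundant members. It had 234 and 225 CPM in VAChT:VGlut against 257 and 232 CPM in VAChT:VGAT, overlapping ranges with a 95% interval of the log2 difference from -0.25 to 0.05. CCHa2, a nutrient signal to the insulin-producing cells, had 88.9 and 80.7 CPM in VAChT:VGlut against 84.4 and 71.9 CPM in VAChT:VGAT. Dsk, a cholecystokinin-like satiety peptide, had 68.3 and 45.7 CPM in VAChT:VGlut against 68.6 and 62.6 CPM in VAChT:VGAT, and its single low value came from VAChT:VGlut replicate 2. Hug, whose pyrokinins act on feeding, had 52.3 and 44.5 CPM in VAChT:VGlut against 61.4 and 54.6 CPM in VAChT:VGAT. Hug groups did not overlap, but the interval of its log2 difference ran from -0.59 to 0.02.

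Pdf, the main output peptide of the ventral clock neurons, had 30.2 and 30.6 CPM in VAChT:VGlut against 30.2 and 18.6 CPM in VAChT:VGAT, and the 3 higher libraries were nearly equal. Mip, the myoinhibiting peptide that acts in sleep and mating receptivity, had 43.2 and 37.3 CPM in VAChT:VGlut against 32.2 and 41.3 CPM in VAChT:VGAT. NPF, the neuropeptide F of feeding and reward, had 15.6 and 22.6 CPM in VAChT:VGlut against 20.5 and 19.98 CPM in VAChT:VGAT. Ranges overlapped for each of these 3 genes. SIFa, CCHa1 and CNMa were at 3.58 to 14.3 CPM in every library, with intervals wide enough to hold a difference of 2-fold for SIFa and CNMa.

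Among the neurohormones of energy and water balance, 1 of 7 tested members passed, where 11.8% of all genes tested did. Crz (FBgn0013767; chromosome 3R, 14314854 to 14315716, plus strand) encodes corazonin, a relative of adipokinetic hormone that acts in stress metabolism. Crz had 19.1 and 16.3 CPM in VAChT:VGlut against 26.1 and 31.3 CPM in VAChT:VGAT, from 38 to 51 counts per library. The groups did not overlap. Crz stood 1.62-fold higher in VAChT:VGAT, which is a log2 fold change of -0.69 for VAChT:VGlut over VAChT:VGAT (SE 0.23, edgeR adjusted p = 0.0344). The call was lost without VAChT:VGlut replicate 2, VAChT:VGAT replicate 1 or VAChT:VGAT replicate 2 (edgeR adjusted p = 0.257, 0.0601 and 0.239).

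The diuretic hormone genes Dh44, related to corticotropin-releasing factor, and Dh31, related to calcitonin gene-related peptide, lay on opposite sides. Dh44 had 134 and 128 CPM in VAChT:VGlut against 110 and 106 CPM in VAChT:VGAT (log2 0.27, SE 0.10, edgeR adjusted p = 0.0692). Dh31 had 93.5 and 98.5 CPM in VAChT:VGlut against 112 and 123 CPM in VAChT:VGAT (log2 -0.28, SE 0.11, edgeR adjusted p = 0.0799). Neither passed, although groups did not overlap for either gene. Over all members tested, groups did not overlap in 15 of 28, against 49.3% of all genes tested.

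ITP, the antidiuretic ion transport peptide, had 139 and 148 CPM in VAChT:VGlut against 127 and 142 CPM in VAChT:VGAT. Capa, whose peptides act on the renal tubules, had nearly equal libraries, with 75.4 and 77.9 CPM in VAChT:VGlut against 79.3 and 75.2 CPM in VAChT:VGAT. Its 95% interval ran from -0.27 to 0.24 on the log2 scale. The photoreceptor gene trp (chromosome 3R, 29914521 to 29920289) lies upstream of Capa (29912991 to 29914346) on the same minus strand. It had 2400 and 2394 CPM in VAChT:VGlut against 1946 and 1913 CPM in VAChT:VGAT. Whether trp transcripts add to the Capa counts was not tested. Leucokinin (Lk), another diuretic peptide, was at 6.14 to 10.6 CPM, too low to exclude a difference of 2-fold. Gpb5, the beta subunit of a glycoprotein hormone, had 7.04 and 12.7 CPM in VAChT:VGlut against 10.2 and 9.99 CPM in VAChT:VGAT, and the row of its partner subunit Gpa2, which the count table places on an unplaced scaffold, had 0 counts in every library.

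The neuropeptide-like precursors, named for peptides found in peptidomic surveys of the fly nervous system, held the 3 highest mean CPM of all members. Nplp2 (FBgn0287423; chromosome 3L, 13356376 to 13357223, plus strand) had 1212 and 1135 CPM in VAChT:VGlut against 1426 and 1398 CPM in VAChT:VGAT. Nplp3 (FBgn0042201; chromosome 3L, 16318024 to 16318690, plus strand) had 447 and 391 CPM in VAChT:VGlut against 537 and 565 CPM in VAChT:VGAT. Both were lower in each VAChT:VGlut library, with log2 fold changes of -0.27 (SE 0.04, edgeR adjusted p = 4.4e-08) and -0.40 (SE 0.06, edgeR adjusted p = 7.38e-08). The fat body list moved the same way, with 6 of 7 markers lower past the threshold (median log2 fold change -0.35). So did the glial list, with 4 of 8 (median -0.26), where 5.54% of all genes tested were lower past it. Most of the fat body sum came from the yolk protein genes Yp1, Yp2 and Yp3. The ovary markers were also lower in VAChT:VGlut (1.51 and 1.99 CPM against 29.7 and 26.6 in VAChT:VGAT). The part of fat body, glia or the sex make-up of the flies in the Nplp2 and Nplp3 difference was not tested. Nplp1, the source of IPNamide, had 271 and 247 CPM in VAChT:VGlut against 245 and 280 CPM in VAChT:VGAT, with a 95% interval of the log2 difference from -0.16 to 0.13. Nplp4 was at 7.99 to 10.3 CPM in the 4 libraries.

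Per kilobase of exon the order of the members differed from the order in CPM. Nplp2 averaged 2119 CPM per kilobase over the 4 libraries and Nplp3 902, ranks 9 and 46 of the 8246 genes tested, and this was their order in every library. Below them Ms (132), Capa (111), Proc (111), Dsk (108), Tk (101), sNPF (96.9) and Nplp1 (96.5) lay close together in CPM per kilobase. Their order changed between libraries: Ms and Proc came next in both VAChT:VGlut libraries, Dsk and Capa in both VAChT:VGAT libraries. CNMa was the lowest tested member at 2.96 CPM per kilobase.

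**Figure D2:**
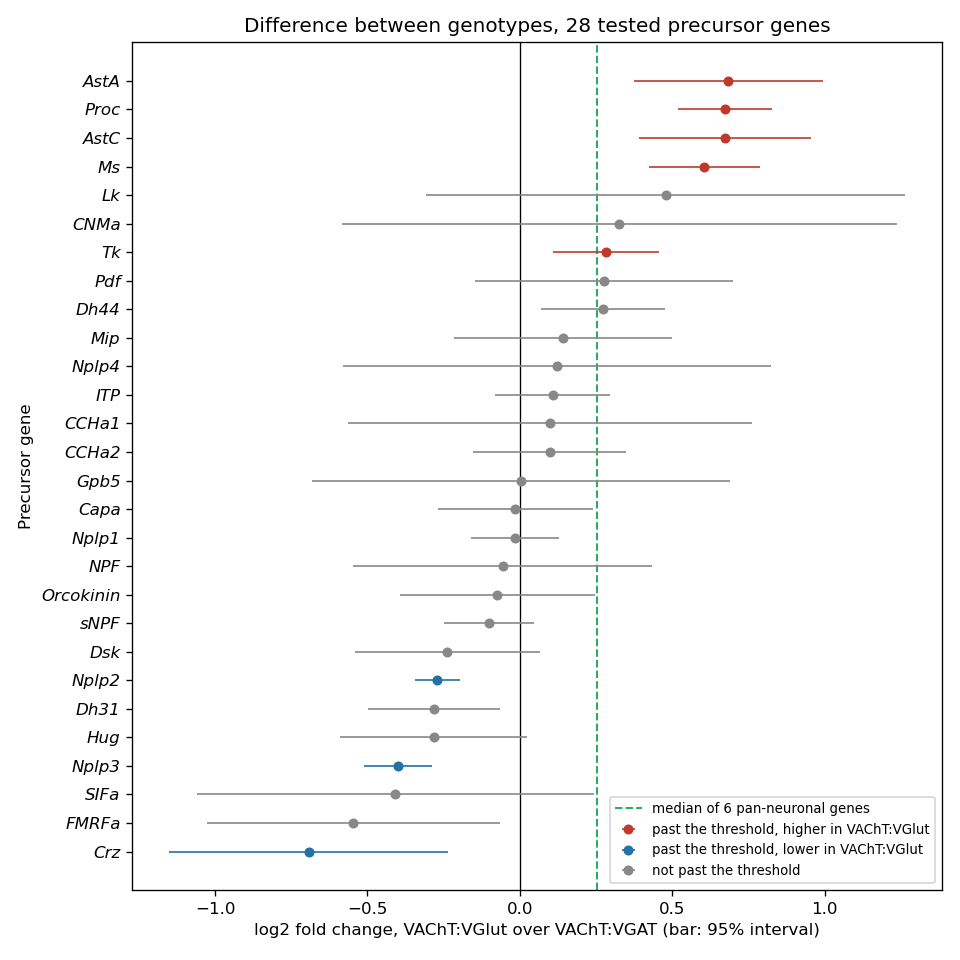
Log2 fold change of each tested precursor gene, VAChT:VGlut over VAChT:VGAT, with its 95% interval; red and blue mark genes past the threshold and the green dashed line is the median of the 6 pan-neuronal genes (0.25). AstA, Proc, AstC and Ms lie to the right of the green line with intervals that do not reach it, and the interval of Tk spans it.

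The remaining 11 members had too few counts to be tested. All 6 peptides of ecdysis and moulting were among them. Those are Eh and ETH, which trigger ecdysis, CCAP, which drives its motor programme, the bursicon subunits Burs and Pburs, which harden the new cuticle, and Ptth, which drives ecdysone synthesis. Burs had 0 counts in every library and Ptth the most, with 2 and 3 counts in VAChT:VGlut against 5 and 2 in VAChT:VGAT. The others were Akh, the glucagon-like hormone of the corpora cardiaca, amn, a memory gene, RYa, AstCC and Gpa2. Of the 11, 3 had 0 counts in every library (Burs, Gpa2 and RYa), which allows up to 1.17 to 2.01 CPM for what those rows could count (Gpa2 only on its unplaced scaffold), and 10 never exceeded 3 counts in a library.

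For the 20 tested members that did not pass, the precision differed widely. In 11 of them the 95% interval of the difference lay within 1.5-fold either way (0.58 on the log2 scale), and in 16 within 2-fold. The 4 wider ones were SIFa, CNMa, Lk and FMRFa. In 3 of the 20 the interval excluded 0 before adjustment (Dh31, Dh44 and FMRFa).

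The pan-neuronal markers were used as another yardstick, a choice made after the data were seen. All 6 rose in VAChT:VGlut, with a median log2 fold change of 0.25. Scaling the libraries to the summed counts of these 6 genes put the median of all genes at -0.26 on the log2 scale, against -0.01 with TMM. Relative to these neuronal genes, Proc (log2 0.42, edgeR adjusted p = 3.9e-05), Ms (0.35, 0.00349), AstC (0.42, 0.0232) and AstA (0.43, 0.0348) stayed higher in VAChT:VGlut. Tk did not (0.03, 0.827). On this scale 9 members were lower in VAChT:VGlut past the threshold, namely Crz, FMRFa, Nplp3, Dh31, Hug, Nplp2, Dsk, sNPF and Nplp1, from -0.95 for Crz to -0.27 for Nplp1. Of all genes tested, 27.5% were lower and 0.994% higher past the threshold on this scale. The 6 pan-neuronal genes had a median exonic length of 8952.5 bases, against 1190 for the 28 tested members. Differences over all genes followed length, as given below, and this scale was not corrected for it. The part of length in the calls on this scale was not tested.

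Precursor genes were short. Their exonic length ran from 420 to 4686 bases with a median of 1033, against 1490 for all genes in the table, and 17 of the 28 tested members fell in the shortest of 4 equal groups of the tested genes by length. Over all genes the differences followed length: the shortest group had a median of -0.14 on the log2 scale and the longest one of 0.10. Proc, Ms, AstC and AstA stood above the median of their length group. After the trend was removed, Nplp2 no longer passed (log2 -0.08, edgeR adjusted p = 0.216) and neither did Crz (-0.51, 0.194), while Nplp3 did (-0.20, 0.0169). Proc, Ms, AstC, AstA and Tk also passed after this correction, as did 7.63% of all genes.

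**Figure D3:**
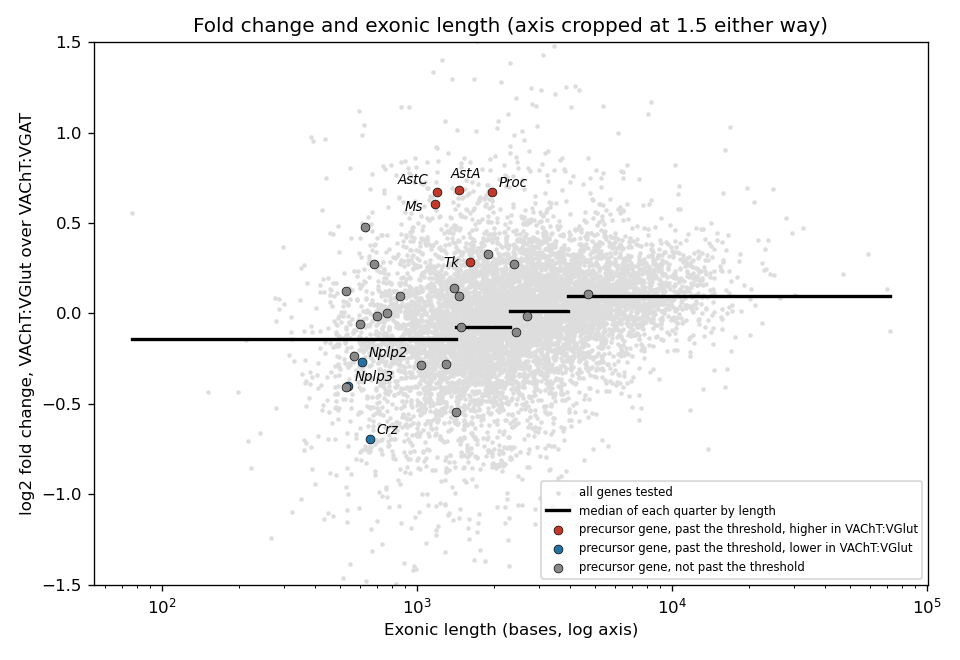
Log2 fold change, VAChT:VGlut over VAChT:VGAT, against exonic length (bases, log axis) for all genes tested (grey, cropped at 1.5 either way) and for the precursor genes (coloured by call); black bars are the medians of 4 groups by length, from -0.14 to 0.10. The precursors sit mostly in the shortest group, with Crz far below and AstC and Ms far above its median.

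The genes that cut, amidate and release peptides were examined next, from a list of 16 of which 14 were analysed here. Of 13 tested, 4 were higher in VAChT:VGlut past the threshold, where 6.22% of all genes were, and none lower. When scaled to the pan-neuronal genes, 2 were higher (IA-2 and Cadps) and 7 lower (7B2, Fur2, Pal1, Phm, QC, isoQC and svr). Of all genes tested, 0.994% were higher and 27.5% lower past the threshold on that scale. IA-2, a dense core vesicle membrane protein, had 14292 and 14708 CPM in VAChT:VGlut against 8199 and 8242 CPM in VAChT:VGAT (log2 0.82, SE 0.02, edgeR adjusted p = 2.29e-41). Cadps, which primes dense core vesicles for release, had 609 and 591 CPM in VAChT:VGlut against 444 and 449 CPM in VAChT:VGAT (log2 0.42, SE 0.05, edgeR adjusted p = 1.3e-09). Pal2, an enzyme of the last step of amidation, and amon, the prohormone convertase of neuroendocrine cells, rose less (log2 0.19 and 0.18, edgeR adjusted p = 0.000818 and 0.0202). These 2 rises were smaller than that of the pan-neuronal genes and became -0.07 and -0.08 when scaled to them. The amon call was also lost with library size alone (edgeR adjusted p = 0.0833), in DESeq2 (its adjusted p = 0.178), with the length trend removed (edgeR, 0.112) and after thinning (edgeR, 0.0921). It was lost without VAChT:VGlut replicate 1 (edgeR adjusted p = 0.0755), VAChT:VGlut replicate 2 (0.122) or VAChT:VGAT replicate 1 (0.429).

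Other genes of processing, named here after their values were seen, did not pass with TMM scaling. Phm, which starts amidation, had 214 and 190 CPM in VAChT:VGlut against 224 and 224 CPM in VAChT:VGAT (log2 -0.16, edgeR adjusted p = 0.213). The carboxypeptidase gene svr had 451 and 440 CPM in VAChT:VGlut against 432 and 460 CPM in VAChT:VGAT, and 7B2, the chaperone of amon, had 563 and 515 CPM in VAChT:VGlut against 527 and 531 CPM in VAChT:VGAT. When scaled to the pan-neuronal genes these 3 were lower past the threshold, Phm at -0.41 (edgeR adjusted p = 6.37e-05), svr at -0.25 (0.000533) and 7B2 at -0.23 (0.000984) on the log2 scale. The median of all genes on that scale was -0.26, so svr and 7B2 lay near the typical gene. Of all genes tested, 27.5% were lower past the threshold there. The transcription factor gene dimm, which marks peptidergic cells, had 2 and 4 counts in VAChT:VGlut against 8 and 0 in VAChT:VGAT and was not tested. Among the neprilysins, which degrade peptides outside the cell, 1 of 4 tested members passed, where 11.8% of all genes tested did. Nep4 had 385 and 348 CPM in VAChT:VGlut against 443 and 438 CPM in VAChT:VGAT (log2 -0.27, SE 0.06, edgeR adjusted p = 0.000496). The Nep4 call was lost without VAChT:VGlut replicate 2 (log2 -0.19, edgeR adjusted p = 0.119).

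None of the 32 tested receptor genes, of 37 listed, passed in edgeR, limma-voom or DESeq2. In edgeR 7 had an unadjusted p under 0.05, a share near the 22.2% of all genes tested. Of these 7, 6 were higher in VAChT:VGlut, as were 931 of the 1829 such genes among all tested. DESeq2 gave 29 of the 32 no adjusted p. The median log2 fold change of the receptors was 0.15. Their median exonic length was 3218 bases, against 1190 for the tested precursors, and the part of length in that median was not tested. The listed receptors of Proc, Ms, AstC, AstA, Tk and Crz were at 7.17 to 35.3 CPM per library, and the list held none for Nplp2 or Nplp3. Proc-R, the proctolin receptor, had 25.6 and 32.6 CPM in VAChT:VGlut against 35.3 and 30.6 CPM in VAChT:VGAT (log2 -0.17, 95% interval -0.56 to 0.22). TkR99D, a tachykinin receptor, had 34.2 and 33.8 CPM in VAChT:VGlut against 24.1 and 23.3 CPM in VAChT:VGAT (log2 0.52, SE 0.20, edgeR adjusted p = 0.089). MsR2, a myosuppressin receptor, had 15.6 and 16.3 CPM in VAChT:VGlut against 10.2 and 10.7 CPM in VAChT:VGAT (log2 0.61, SE 0.30, edgeR adjusted p = 0.214). Groups did not overlap for the last 2 receptor genes, and they overlapped for Proc-R. MsR1, AstA-R1, AstA-R2, AstC-R1 and CrzR also had overlapping libraries, and AstC-R2 and TkR86C did not.

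Receptors were counted for several ligands that were near 0, examples chosen after their values were seen. AkhR, the receptor of adipokinetic hormone, which is known from the fat body, had 60.3 and 48.1 CPM in VAChT:VGlut against 42.0 and 48.6 CPM in VAChT:VGAT, while Akh had at most 1 count in a library. ETHR had 19.6 and 21.5 CPM in VAChT:VGlut against 19.96 and 18.6 CPM in VAChT:VGAT, while ETH had at most 3 counts. The bursicon receptor rk had 24.6 and 15.1 CPM in VAChT:VGlut against 11.3 and 11.3 CPM in VAChT:VGAT (log2 0.78, SE 0.29, edgeR adjusted p = 0.0692), while Burs was at 0. It passed with the replicate block and without VAChT:VGlut replicate 2.

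**Figure D4:**
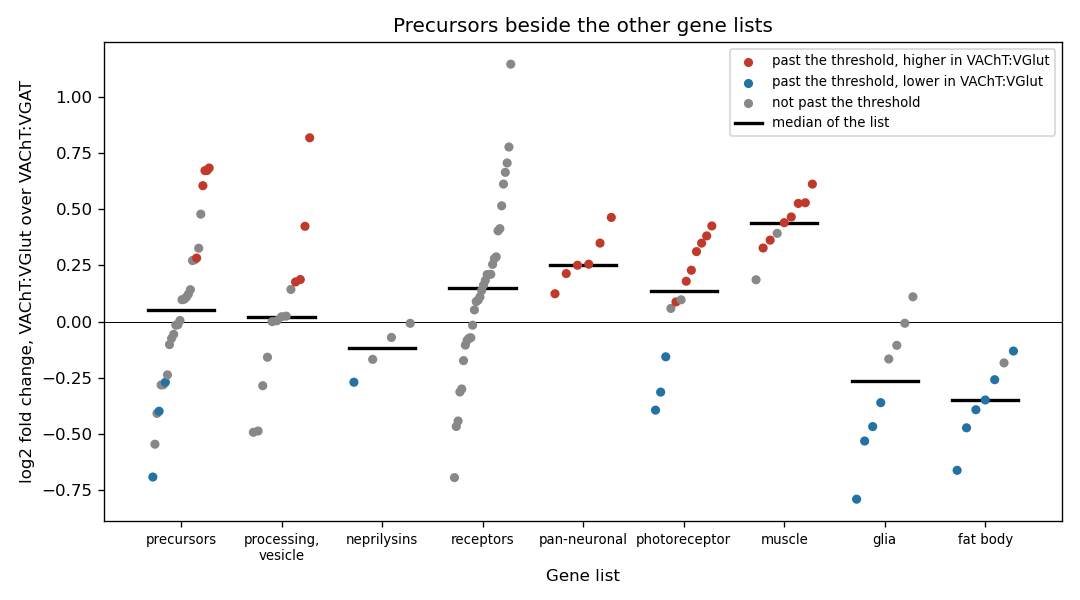
Log2 fold change, VAChT:VGlut over VAChT:VGAT, of each tested gene in the precursor list, the other peptide lists and the cell type marker lists; red and blue mark genes past the threshold and black bars the median of each list. Precursors spread to both sides of 0 (median 0.05), pan-neuronal (0.25) and muscle (0.44) markers lie above it and fat body markers (-0.35) below it.

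The 5 genes that were higher in VAChT:VGlut moved with the pan-neuronal, photoreceptor and muscle lists. Of these lists, 6 of 6, 7 of 12 and 7 of 9 tested genes were higher past the threshold (3 photoreceptor genes were lower). Of all genes tested, 6.22% were higher and 5.54% lower past the threshold. The part of photoreceptors and muscle in these differences was not tested. None of the 8 precursors that passed did so in a test against a 1.5-fold change, where 0.558% of all genes passed. Proc, Ms, AstC and AstA still passed when the biological coefficient of variation was set to 0.1, as did 2.26% of all genes, and none of the 8 passed with one of 0.2. The common coefficient fitted to these libraries was only 2.18%.

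**Figure D5:**
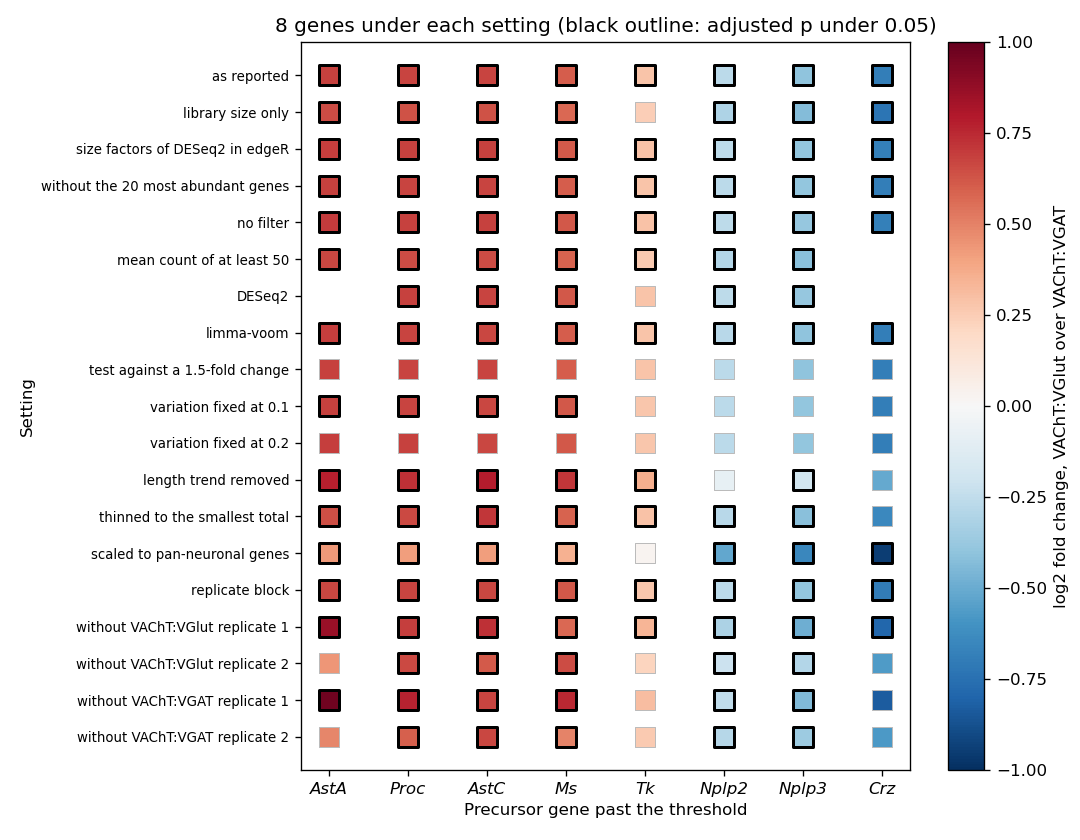
Log2 fold change, VAChT:VGlut over VAChT:VGAT, of the 8 precursor genes past the threshold under each setting (colour), with a black outline where the adjusted p was under 0.05 and a gap where a gene had no adjusted p. All squares of a gene keep its direction, and the outlines of Tk and Crz are lost most often.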

How the data were processed

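The authors deposited raw counts for 17137 genes, made with featureCounts 1.5.1 from read pairs on the reverse strand over exons of the dm6 refGene annotation, per the file headers. The submitters' processing notes also name fastp, STAR and DESeq2. The exonic length in bases is another column of the deposited table. FlyBase identifiers come from the gene tables of the reference and coordinates from the deposited table.

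Testing used edgeR 4.0.16 in R 4.3.3 (quasi-likelihood), with 1 fit over the 4 libraries and no covariate besides genotype. The filter filterByExpr (minimum count 10, minimum total 15) left 8246 genes, TMM factors ran from 0.99 to 1.01, and p-values were Benjamini-Hochberg adjusted over all of them. Each SE is the log2 fold change divided by the root of F. Counts for these 8246 genes were also simulated with the variation fitted to these libraries. In them edgeR recovered 95% of planted 2-fold changes and 70% of planted changes of 0.5 on the log2 scale, and called 10 unchanged genes. Changes were planted only in the more abundant genes, so the recovery does not cover CCHa1, CNMa, Gpb5, Lk, Nplp4, SIFa or NPF. Alternatives, described in the closing section, used limma 3.58.1, DESeq2 1.42.0 and other scalings, filters, variations and subsets of libraries. Precursor genes past the threshold and the 6 most abundant were named in full, with all others accounted for. The members and lists were chosen with earlier results of these data known.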

Additional observations from a re-analysis of the deposited data

How the results depend on the processing

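The count of 8 precursor genes was 6 to 8 with library size, DESeq2 size factors in edgeR, both filters, the 20 most abundant genes left out, limma-voom, thinning, removal of the length trend and the replicate block. DESeq2 gave 5 (Proc, Ms, AstC, Nplp2 and Nplp3), with no adjusted p for 15 of 28. It was 0 in a test against a 1.5-fold change, 4 with a variation fixed at 0.1, 0 at 0.2 and 13 when scaled to pan-neuronal genes, a setting added after the data were seen. Leaving out 1 library gave 5 to 8, with 5 without VAChT:VGlut replicate 2 or VAChT:VGAT replicate 2; the lone library left is then assumed to vary like the other genotype's. For processing genes the count of 4 became 1 in the 1.5-fold test, 1 at 0.1, 0 at 0.2 and 9 (2 higher, 7 lower) with pan-neuronal scaling, and 3 to 5 without 1 library. For receptors the count of 0 became 3 (all lower) with pan-neuronal scaling, 1 with the replicate block (rk) and 0 to 2 without 1 library. For all genes the count of 970 became 370 with DESeq2, 46 in the 1.5-fold test, 186 at 0.1, 24 at 0.2, 629 without the length trend, 2352 with pan-neuronal scaling and 513 (without VAChT:VGlut replicate 2) to 738 without 1 library, with 612 without VAChT:VGAT replicate 1. The 1.5-fold test asks for a larger difference, and 0.1 and 0.2 are above the fitted variation of 2.18%. Pan-neuronal scaling moved the median log2 fold change of all genes to -0.26. DESeq2 gave 5116 genes no adjusted p, and leaving out a library means fewer samples. The part of each in these counts was not tested.

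The replicate block gave 8 precursor genes, the same 8, and changed no other call among them. Replicate numbers are shared between the genotypes, but deviations of same-numbered libraries had a correlation of -0.03 and the numbers do not mark a stated pairing. Log2 fold changes changed sign in several precursors that did not pass, in none of the 8 that did, and in Pal2 and amon. Receptors and the processing genes that did not pass were followed as counts, except that 7B2 became -0.23 with pan-neuronal scaling. Gpb5 became -0.0304 with library size, -0.0526 in limma-voom, -0.0102 at 0.2, -0.0517 with the block and -0.25 with pan-neuronal scaling. That scaling also turned CCHa1 (-0.15), CCHa2 (-0.16), ITP (-0.15), Mip (-0.11), Nplp4 (-0.13), Pal2 (-0.0659) and amon (-0.0768). Without the length trend Capa became 0.16, NPF 0.14 and Orcokinin 0.0132, and after thinning Capa became 0.0039 and CCHa1 -0.0076. Without 1 library the values ran from -0.0471 to 0.0279 for Capa, -0.37 to 0.16 for NPF, -0.41 to 0.42 for CCHa1, -0.52 to 0.0549 for Dsk and -0.52 to 0.33 for Gpb5. They ran from -0.12 to 0.0753 for Nplp1, -0.10 to 0.78 for CNMa, -0.0469 to 0.31 for Mip and -0.000388 to 0.23 for CCHa2. Nep4 did not pass in the 1.5-fold test or at 0.1 or 0.2. Dh31 passed in edgeR with library size (adjusted p = 0.0433) and with a mean count of at least 50 as the filter (0.0381).

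With 2 libraries per genotype and 7 to 36 counts per library for the 6 members under 12 CPM, the 95% interval reached beyond 1.5-fold on at least 1 side for each of them. No untagged or input library was analysed here.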
